A study of Mus musculus with 8 samples.

Results

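The 10 genes of the V(D)J recombination machinery described here were Rag1, Rag2, Dntt, Hmgb1, Hmgb2, Xrcc5, Xrcc6, Prkdc, Dclre1c and Lig4. They were taken by gene symbol from a table of 52550 genes, and all 10 were found. Bone marrow cells of the pre-pro-B stage and the later pro-B stage were sorted, and their RNA was sequenced to compare wild type (WT) mice with mice lacking the gene for lactoferrin (Lf-/-), an iron-binding protein of milk and neutrophil granules. All mice were of the C57BL/6J strain and were given no treatment, and the Lf-/- mice were a knockout of the lactoferrin gene. Pre-pro-B cells were gated on surface markers that included AA4.1+, B220+ and CD24-, and pro-B cells as B220+ CD43+ IgM-. Of the 7 libraries analysed, 4 held pre-pro-B cells (2 from each genotype) and 3 held pro-B cells (1 WT, 2 Lf-/-). WT pro-B replicate 2 is not analysed here, so that group had no replicate. Ages are not given in the sources used here.

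V(D)J recombination joins variable, diversity and joining segments into the antigen receptor genes of B and T cells. RAG1 and RAG2 together form the recombinase, which binds recombination signals with the help of the DNA-bending proteins HMGB1 and HMGB2 and cuts the DNA, leaving hairpin ends. The Ku heterodimer (Xrcc5 and Xrcc6) holds the broken ends, DNA-dependent protein kinase (Prkdc) and Artemis (Dclre1c) open the hairpins, terminal transferase (Dntt) adds bases without a template, and DNA ligase IV (Lig4) seals the joint. The recombinase and terminal transferase are restricted to developing lymphocytes, while the other members act in DNA repair or chromatin of most cell types.

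The 3 lymphoid members are shown by their promoters, because they are the members restricted to lymphocytes. Each line gives the 250 bases before the RefSeq gene start on GRCm38.p6, 5′ to 3′ on the strand of the gene, with E-boxes (CANNTG, the motif bound by E2A proteins) in capitals. The window of Rag1 is chr2:101649533-101649782 on the minus strand, that of Rag2 is chr2:101624462-101624711 on the plus strand and that of Dntt is chr19:41029025-41029274 on the plus strand.
Rag1: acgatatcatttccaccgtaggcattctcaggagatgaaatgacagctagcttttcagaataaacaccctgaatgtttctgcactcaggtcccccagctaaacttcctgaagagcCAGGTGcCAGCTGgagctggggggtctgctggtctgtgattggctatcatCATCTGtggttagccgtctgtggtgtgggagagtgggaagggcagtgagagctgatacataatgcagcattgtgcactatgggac
Rag2: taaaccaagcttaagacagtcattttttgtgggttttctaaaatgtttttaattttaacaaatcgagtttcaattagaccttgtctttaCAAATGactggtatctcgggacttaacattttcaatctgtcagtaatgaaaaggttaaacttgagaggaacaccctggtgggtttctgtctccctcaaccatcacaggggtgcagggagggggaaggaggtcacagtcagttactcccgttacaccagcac
Dntt: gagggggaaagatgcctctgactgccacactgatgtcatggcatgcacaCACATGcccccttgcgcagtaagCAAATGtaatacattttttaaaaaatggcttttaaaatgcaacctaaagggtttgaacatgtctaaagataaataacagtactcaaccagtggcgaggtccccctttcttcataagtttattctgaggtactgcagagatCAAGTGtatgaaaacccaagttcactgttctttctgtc

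The window of Rag1 held 3 E-boxes, that of Rag2 held 1 and that of Dntt held 3. All 3 E-boxes of Rag1 also matched CAGNTG, a narrower form of the same motif read on both strands, and no match to it was present before Rag2 or Dntt. An E-box was present in 66.2% and CAGNTG in 44.8% of 32851 promoter windows of the same length, so these matches are common letters and describe the windows only. The Ebf1 core CCCNNGGG, present in 11.8% of windows, had no match in any of the 3. A CCAAT box was found before Rag1 and not before Rag2 or Dntt, compared with 33.8% of all windows.

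Values were FPKM, which scale the fragments of a gene by its transcript length and the depth of the library. Ltf, the gene for lactoferrin, was at 2140, 2730 and 2650 FPKM in the WT libraries and at 88.2 to 168 FPKM in the Lf-/- libraries, so the labels and the knockout went together. Lf-/- pre-pro-B replicate 2 stood apart from the other libraries, with 12172 genes above 0 compared with 19477 to 20250 elsewhere. Rag2, Prkdc and Lig4 were listed at 0 in it, as were Nhej1, Nbn and Poll of the same repair pathway. Depth read from steps in the values was 11000000 to 15400000 fragments in the other 6 libraries and is unknown in that one. At these depths 26.8% to 41.0% of the low values lay on a step, compared with medians of 9.5% to 11.5% over the depths tried. Depths outside a limited range were not tried, so fragment numbers are approximate. Of the summed FPKM of a library, 25.7% to 53.3% fell on 19 neutrophil genes, and 0.0308% to 0.468% on 18 early B lineage genes. Every early B lineage gene was above 0 in every library, and their share was 0.0308% to 0.0873% in WT and 0.236% to 0.468% in Lf-/- libraries.

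The recombinase genes were low in every library. Rag1 was at 0.166 and 0.162 FPKM in the WT libraries of pre-pro-B cells, while the knockout ones held 1.41 and 1.81 FPKM. The WT library of pro-B cells listed Rag1 at 0, compared with 0.893 and 0.338 FPKM with the knockout. Every Lf-/- library lay above every WT library, as was so for 4.7% of genes above 0 in some library. Over its single transcript of 6608 bases, Rag1 rests on about 12, 13 and 0 fragments in the WT libraries. The knockout libraries of known depth hold about 103 at the earlier stage, and 66 and 34 at the later one. Rag2 was at 0.286 and 0.440 FPKM in the WT libraries of pre-pro-B cells, while the knockout ones held 0.905 FPKM and a value listed at 0. Its pro-B values were 0.0994 FPKM in the WT library and 1.69 and 0.710 FPKM with the knockout. The genotypes overlapped through Lf-/- pre-pro-B replicate 2 alone, and without it every Lf-/- value lay above every WT value. Without that library the same held for 10.3% of genes above 0. On chromosome 2 of GRCm38, Rag2 (101624718 to 101632529) and Rag1 (101638282 to 101649501) lie 5752 bases apart on opposite strands. Exons of B230118H07Rik, which lies on the strand of Rag1 and was at 1.41 to 5.24 FPKM, overlap both genes, so reads in the shared parts could be counted for either.

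Terminal transferase (Dntt, chromosome 19, 41029275 to 41059525) spanned a wider range. Dntt was at 6.30 and 15.2 FPKM in the WT libraries of pre-pro-B cells, while the knockout ones held 8.86 and 42.6 FPKM. The WT library of pro-B cells held Dntt at 2.84 FPKM, compared with 63.0 and 20.6 FPKM with the knockout. The groups overlapped in pre-pro-B cells, where Lf-/- replicate 1 lay between the WT values, and did not overlap in pro-B cells. In pro-B cells 50.5% of the genes above 0 were likewise higher in both Lf-/- libraries. The ratio of Dntt to Rag1 at the pre-pro-B stage was 37.9 and 93.7 in WT, and 6.27 and 23.5 in knockout libraries. At the pro-B stage it was 70.5 and 60.8 in knockout libraries and undefined in WT. Within Lf-/- cells this ratio was therefore higher in both pro-B libraries than in both pre-pro-B libraries, without a test.

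The DNA-bending cofactors Hmgb1 (chromosome 5, 149046702 to 149184489) and Hmgb2 (chromosome 8, 57511907 to 57515999) were the most abundant members. Hmgb1 was at 90.2 and 95.1 FPKM in the WT libraries of pre-pro-B cells, while the knockout ones held 105 and 87.6 FPKM. Its pro-B values were 124 FPKM in the WT library and 144 and 125 FPKM with the knockout. Hmgb2 was at 533 and 532 FPKM in the WT libraries of pre-pro-B cells, while the knockout ones held 539 and 411 FPKM. The WT library of pro-B cells held Hmgb2 at 716 FPKM, compared with 512 and 516 FPKM with the knockout. Hmgb2 was highest in the library with the largest neutrophil share (53.3%) and lowest in the one with the smallest (25.7%), and the part of those cells in its level was not tested. The ratio of Hmgb2 to Hmgb1 was 5.60 to 5.92 in the 3 WT libraries and 3.56 to 5.15 in the 4 Lf-/- libraries, with no overlap. How often other gene pairs do the same was not computed, and the part of neutrophil RNA in this ratio was not tested. Both genes have near-identical copies, which limits these values. For Hmgb1, 41 other genes matched its transcript at 95% identity or more over at least 300 bases and held up to 78.6% of the joint FPKM, and for Hmgb2, 5 such genes held up to 42.9%.

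The Ku subunits Xrcc6 (chromosome 15, 81987835 to 82040085) and Xrcc5 (chromosome 1, 72307421 to 72394952) had different patterns. Xrcc6 was at 9.23 and 9.24 FPKM in the WT libraries of pre-pro-B cells, while the knockout ones held 15.0 and 24.9 FPKM. Its pro-B values were 3.83 FPKM in the WT library and 16.7 and 9.51 FPKM with the knockout. Every Lf-/- library lay above every WT library, by a small margin for Lf-/- pro-B replicate 2. The same held for 4.7% of genes above 0 and 9.87% of genes that reached 1 FPKM in 2 or more libraries. Xrcc5 was at 2.92 and 2.36 FPKM in the WT libraries of pre-pro-B cells, while the knockout ones held 1.35 and 6.51 FPKM. The WT library of pro-B cells held Xrcc5 at 1.53 FPKM, compared with 2.47 and 2.31 FPKM with the knockout. The genotypes overlapped. Their ratio, Xrcc6 to Xrcc5, was 2.51 to 3.92 in WT and 3.83 to 11.1 in Lf-/- libraries, which overlapped. An exon of Desi1 overlaps Xrcc6 on the opposite strand over 346 bases, and Desi1 itself was at 2.95 to 5.18 FPKM in WT and 4.26 to 12.8 FPKM in Lf-/- libraries.

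The nuclease Dclre1c (chromosome 2, 3424131 to 3464130), the kinase Prkdc (chromosome 16, 15637866 to 15842235) and the ligase Lig4 (chromosome 8, 9969049 to 9977686) were near or below 1 FPKM. Dclre1c was at 0.819 and 0.665 FPKM in the WT libraries of pre-pro-B cells, while the knockout ones held 1.21 and 1.06 FPKM. Its pro-B values were 0.557 FPKM in the WT library and 1.40 and 0.691 FPKM with the knockout. It did not overlap between genotypes within either stage, but did across stages, and exons of Suv39h2 overlap it on the opposite strand. In pro-B cells 50.5% of genes above 0 were likewise higher in both Lf-/- libraries, and no such share was computed for pre-pro-B cells. With median-ratio scaling Dclre1c overlapped in both stages. Its scaled pre-pro-B values were 0.812 and 0.712 in WT and 1.33 and 0.803 in Lf-/- libraries. Its scaled pro-B values were 0.756 in WT and 1.18 and 0.612 in Lf-/- libraries. Prkdc was at 0.210 and 0.369 FPKM in the WT libraries of pre-pro-B cells, while the knockout ones held 0.431 FPKM and a value listed at 0. The WT library of pro-B cells held Prkdc at 0.223 FPKM, compared with 0.607 and 0.382 FPKM with the knockout. Lig4 was at 0.256 and 0.0639 FPKM in the WT libraries of pre-pro-B cells, while the knockout ones held 0.635 FPKM and a value listed at 0. Its pro-B values were 0.0791 FPKM in the WT library and 0.617 and 0.215 FPKM with the knockout. Both overlapped between genotypes, and without Lf-/- pre-pro-B replicate 2 Prkdc no longer did. Without that library 10.3% of genes above 0 were higher in every Lf-/- library.

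**Figure D1:**
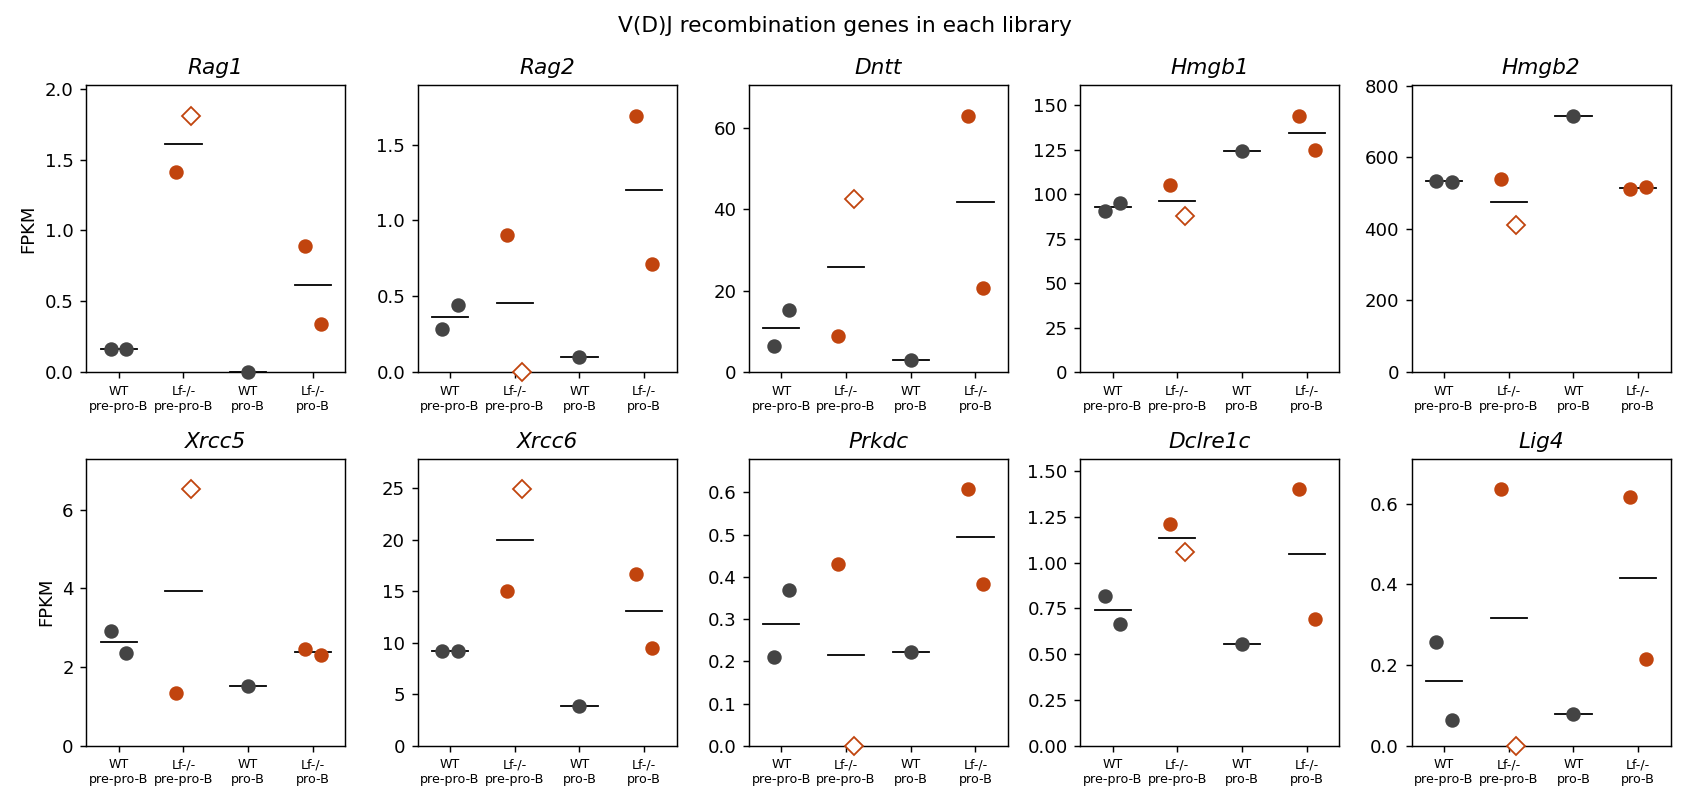
FPKM of each gene (vertical axis, linear from 0, scaled per panel) in the 7 libraries by genotype and stage. Points are libraries, bars are group means and the open diamond is Lf-/- pre-pro-B replicate 2. Rag1 and Xrcc6 are the 2 genes whose Lf-/- points all lie above all WT points.

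Over all 7 libraries, every Lf-/- value lay above every WT value for 2 of the 10 members, Rag1 and Xrcc6, compared with 4.7% of the 27443 genes above 0 in some library and 9.87% of the 10793 genes that reached 1 FPKM in 2 or more libraries. Without Lf-/- pre-pro-B replicate 2 the count was 4 of 10 (Rag1, Rag2, Xrcc6 and Prkdc). This compares with 10.3% of genes above 0 and 16.3% of genes past the filter of 1 FPKM. With median-ratio scaling, which gives the typical gene the same level in each library, the count was 1 of 10 (Rag1). This compares with 2.47% of genes above 0 and 5.16% of genes past the filter.

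In pre-pro-B cells, genotypes were compared with limma on log2(FPKM + 1), a scale that understates changes of low genes, with Benjamini-Hochberg adjustment over 9720 genes. No gene passed an adjusted p of 0.05 (0% of those tested), 284 genes (2.92%) had an unadjusted p under 0.05, and of the members Rag1 was among these. Of the 284 genes 194 were higher in Lf-/- cells. With an equal sum outside neutrophil genes 161 of 297 were, and with median-ratio scaling 199 of 317 were. The Rag1 difference was 1.16 (standard error 0.43, unadjusted p = 0.0373, adjusted p = 0.9405 in limma). Rag1 and Dclre1c reached 1 FPKM in Lf-/- libraries alone, so they passed the filter only through the genotype in which they were higher, and this p of Rag1 is no evidence of a difference. In a fit without a filter Rag1 did not pass that threshold (unadjusted p = 0.0575, adjusted p = 0.874 in limma). Xrcc6 differed by 0.99 (standard error 0.46) and Dntt by 0.93 (standard error 0.83), neither past the unadjusted threshold. The other members past the filter were closer to 0, with Dclre1c at 0.29, Xrcc5 at 0.21, Hmgb1 at 0.05 and Hmgb2 at -0.18. Rag2, Lig4 and Prkdc did not pass the filter of 1 FPKM in 2 libraries, and in a fit without a filter they differed by 0.02, 0.15 and -0.11. The 2 Lf-/- libraries gave different values. Without replicate 2 of the knockout, the Dntt difference was -0.14, and without replicate 1 it was 2.005 (adjusted p = 0.0422 in limma), with Xrcc6 at 1.34 (adjusted p = 0.0237) and Xrcc5 at 1.05 (adjusted p = 0.04998). In that last fit Lf-/- replicate 2 stood alone and was assumed to vary like the WT pair, and 3338 genes were called.

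In pro-B cells, 1 WT library allowed no test. Both Lf-/- values of 9 members lay above the WT value, compared with 50.5% of 24512 genes above 0 in these libraries and 75.3% of genes past the filter, and both of Hmgb2 lay below it. With median-ratio scaling 6 members lay above (27.8% of genes), Hmgb1 and Hmgb2 lay below, and Xrcc5 and Dclre1c lay on both sides. At a difference of at least 1 on the log2 scale, Dntt (3.28) and Xrcc6 (1.50) were past it, compared with 12.4% of genes past it in that direction, and the median difference over all genes was 0.483. Rag2 differed by 0.96, Xrcc5 by 0.42, Lig4 by 0.38, Dclre1c by 0.37, Prkdc by 0.29, Hmgb1 by 0.12 and Hmgb2 by -0.48. On that scaling the difference of Hmgb1 was -0.52, that of Xrcc5 -0.0026 and that of Xrcc6 0.95. Of the 1462 genes past that size in either direction 1341 were higher. With median-ratio scaling 432 of 822 were, and with an equal sum outside neutrophil genes 874 of 1059 were. No difference is given for Rag1, which was listed at 0 in the WT library.

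With the stages combined in an additive limma fit of genotype and stage, 20 of 10793 genes (0.185%) passed an adjusted p of 0.05 and no member was among them. Of these genes 7.17% had an unadjusted p under 0.05, and of the members so did Xrcc6, Rag1 and Dntt. Of the 20 genes 19 were higher in Lf-/- cells and of the 774 unadjusted ones 699 were. This compares with 5 of 7 and 436 of 806 with median-ratio scaling. With an equal sum outside neutrophil genes it was 11 of 12 and 496 of 644. Xrcc6 differed by 1.19 (standard error 0.34, unadjusted p = 0.00669, adjusted p = 0.384 in limma). Rag1 differed by 0.97 (standard error 0.29, unadjusted p = 0.0086, adjusted p = 0.418 in limma), a value that depends on the constant added before the logarithm because 1 library was listed at 0, and that was 2.70 with a constant of 0.1. Its place in this fit again rests on the filter, and without a filter its unadjusted p was 0.00869 (adjusted p = 0.843 in limma). Dntt differed by 1.87 (standard error 0.71, unadjusted p = 0.0275, adjusted p = 0.632 in limma). The sign of all 3 held under each alternative run in this fit. Without the WT pro-B library, the Dntt difference was 0.93, that of Rag2 was 0.021, and no gene in the table passed the adjusted threshold, with 529 unadjusted. Dclre1c (0.32), Xrcc5 (0.30), Hmgb1 (0.08) and Hmgb2 (-0.30) did not pass the unadjusted threshold, nor did Rag2 (0.40), Lig4 (0.24) and Prkdc (0.05) without a filter. Without Lf-/- pre-pro-B replicate 2 these last 3 were at 0.72, 0.44 and 0.22. Of these, Xrcc5, Hmgb1 and Prkdc changed sign under other scalings. The median over all genes was 0.207, and -0.059 with median-ratio scaling. An exact permutation test on a single gene cannot go below a two-sided p of 0.333 with 2 libraries against 2, or 0.0571 with 4 against 3.

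**Figure D2:**
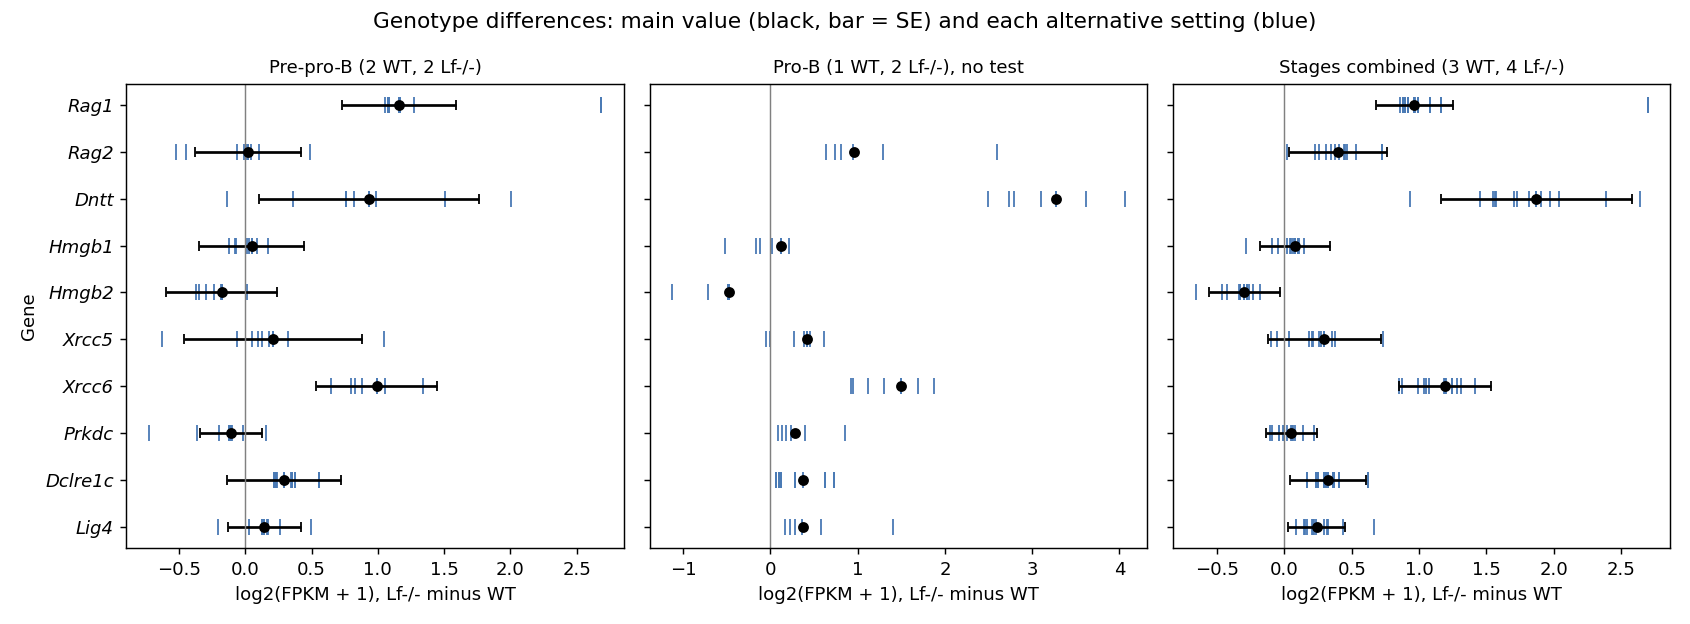
Genotype difference of each gene (horizontal axis, log2(FPKM + 1), Lf-/- minus WT, except alternatives with a constant of 0.1) in pre-pro-B cells, pro-B cells and both combined. Black points are the values reported, with standard errors where a test was run, and blue ticks are all alternative settings. Rag1 is left out in pro-B cells, and Rag1, Xrcc6 and Dclre1c stay right of 0 wherever drawn.

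Between stages, 1 gene (0.00927%) passed an adjusted p of 0.05 in the same fit and 2.41% had an unadjusted p under 0.05. Of these 260 genes 135 were higher in pro-B cells. With an equal sum outside neutrophil genes 296 of 380 were, and with median-ratio scaling 190 of 308 were. Of the members, Xrcc6 was lower in pro-B than in pre-pro-B cells by the unadjusted threshold, with a difference of -0.78 (standard error 0.34, unadjusted p = 0.0475, adjusted p = 0.947 in limma). Rag1 (-0.51), Xrcc5 (-0.39), Dclre1c (-0.11), Dntt (-0.10), Hmgb2 (0.25) and Hmgb1 (0.46) did not pass it, and Rag2 (0.26), Prkdc (0.16) and Lig4 (0.04) did not in a fit without a filter. Among the 18 early B lineage genes, 3 had a stage difference above 0. Their median was -0.389, compared with -0.0268 over all genes. Unadjusted, 5 of the 18 passed, all lower in pro-B cells. The WT pro-B library held the smallest early B lineage share (0.0308%) and the largest neutrophil share (53.3%). In Lf-/- libraries the early B lineage shares of the stages overlapped. The part of library content in the stage difference of Xrcc6 was not tested. Whether the genotype difference itself changed between stages was tested as an interaction, in which no gene passed (0%) by adjusted p and 296 did at an unadjusted p under 0.05, with no member among them. Of the 296 genes 273 were positive. With median-ratio scaling 98 of 139 were, and with an equal sum outside neutrophil genes 226 of 251 were. The interaction of Dntt was 2.34 (standard error 1.33, unadjusted p = 0.122, adjusted p = 0.9898 in limma), and 1.27 to 3.415 with 1 library left out. The others were Rag2 (0.94, and 3.12 with a constant of 0.1, no filter), Xrcc6 (0.50), Rag1 (-0.49, and 0.035 with a constant of 0.1), Prkdc (0.39, no filter), Hmgb2 (-0.30), Lig4 (0.23, no filter), Xrcc5 (0.21), Dclre1c (0.08) and Hmgb1 (0.07).

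The B lineage markers moved with genotype too. Over the early B lineage list the median genotype difference was 2.1 with stages combined. Of its 18 genes 4 passed an adjusted p of 0.05, all higher, compared with 0.185% of all genes tested. Without Lf-/- pre-pro-B replicate 2 the median was 2.25 and 12 genes of the list passed, compared with 123 of 10529 genes. Of this list Ebf1 and Pax5 reached 1 FPKM in only 1 WT library each and passed the filter only through Lf-/- libraries. Neither is among the 4, but Ebf1 is among the 12, so that count rests in part on the filter. The plasmacytoid dendritic cell list summed to 230 to 513 FPKM in WT and 1180 to 3340 FPKM in Lf-/- libraries. The T cell list summed to 16.0 to 35.3 FPKM and 69.7 to 110 FPKM, with 6 of its 12 genes listed at 0 in Lf-/- pre-pro-B replicate 2. Single genes of these lists did not all follow the sums. In Lf-/- pre-pro-B replicate 1, Siglech (1.98 FPKM), Cd3d (2.71 FPKM) and Cd3g (0.801 FPKM) lay below every WT value. In both Lf-/- pro-B libraries these genes lay above every WT value. In Lf-/- pre-pro-B replicate 2, Siglech and Cd3d lay above every WT value and Cd3g was listed at 0. The part of these markers in the members' differences was not tested. In bulk RNA, more cells of a type and more RNA per cell cannot be told apart. Divided by the summed early B lineage FPKM of the same library, Rag1 was at 0 to 0.0263 per 100 in WT and 0.0195 to 0.0681 in Lf-/- libraries, and Dntt at 0.904 to 2.46 and 0.227 to 2.03, so both overlapped. Rag2 and Lig4 overlapped as well. The other 6 members (Hmgb1, Hmgb2, Xrcc5, Xrcc6, Prkdc and Dclre1c) were lower in every Lf-/- library on this scale, as were 44% of all genes above 0 and 78.9% of those past the filter. Xrcc6, higher in Lf-/- libraries as FPKM, was at 1.32 to 1.50 per 100 in WT and 0.385 to 0.936 in Lf-/- libraries.

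**Figure D3:**
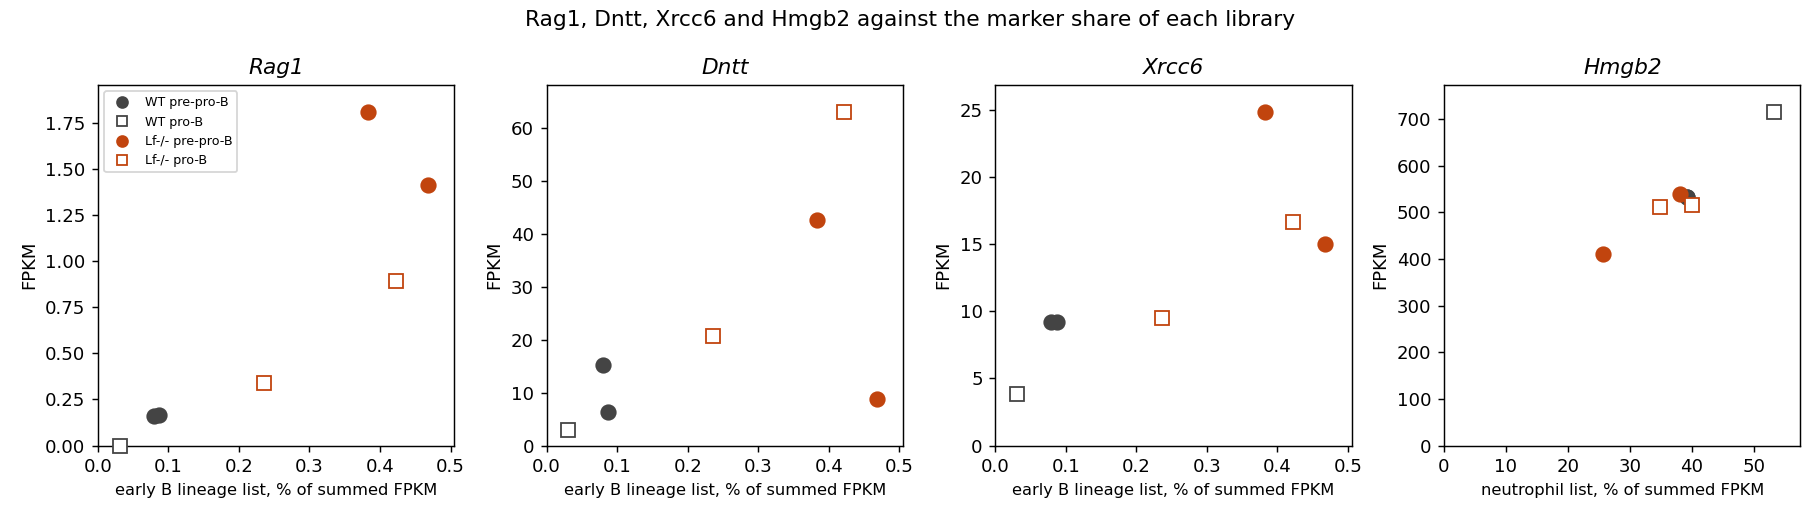
FPKM of Rag1, Dntt and Xrcc6 against the early B lineage share of each library, and of Hmgb2 against the neutrophil share (horizontal axes, percent of summed FPKM). Each point is 1 of 7 libraries, and the 3 WT points of Rag1 and Xrcc6 lie at the lower left, where the early B lineage share is at most 0.0873%.

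Other genes of the pathway were read from hand-written lists. Of 23 other end-joining and break-response genes, 20 passed the filter, none passed an adjusted p of 0.05 with stages combined, and 2 did unadjusted, both higher. These were Polm, a polymerase of end joining related to terminal transferase (1.23, adjusted p = 0.412 in limma), and Parp1, a sensor of DNA breaks (0.65, adjusted p = 0.689 in limma). Their list median was 0.162, below the 0.207 of all genes. Nhej1 (-0.86), Nbn (-0.77), Poll (-0.77) and Atm (0.55) had the next largest differences, and the first 3 of them were listed at 0 in Lf-/- pre-pro-B replicate 2. Without that library Nhej1 was at -0.064, Nbn at -0.12 and Poll at -0.39, and Polm and Parp1 were at 1.02 and 0.71. Atm, at 0.22 to 0.372 FPKM in WT libraries, passed the filter only through Lf-/- libraries and did not pass it without that library. Of 5 alternative end-joining genes 3 passed the filter, with a median of -0.123, and Xrcc1 (0.39), Rbbp8 (-0.15) and Lig1 (-0.12) did not pass either threshold.

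Of 15 regulators of Rag transcription, all passed the filter and none passed an adjusted p of 0.05. Unadjusted, 7 passed, compared with 7.17% of all genes tested. All 7 were higher in Lf-/- libraries, as were 699 of the 774 genes that passed unadjusted. The list median was 0.794, compared with 0.207 over all genes. Foxo1, a factor required for Rag expression in early B cells, was at 0.999 to 2.80 FPKM in WT and 2.92 to 8.55 FPKM in Lf-/- libraries, a difference of 1.64 (adjusted p = 0.247 in limma). Ebf1 (1.45), Ikzf3 (1.32), Foxp1 (1.24), Tcf3 (1.18) and Pax5 (1.18) followed, and of these Ebf1 and Pax5 are also in the early B lineage list. Without Lf-/- pre-pro-B replicate 2, Ebf1 passed the adjusted threshold (1.61, adjusted p = 0.0293 in limma), as did 123 of 10529 genes. Unadjusted, 8 of the 15 passed, as did 1013 of 10529 genes. Ebf1, Ikzf3 and Pax5 reached 1 FPKM in only 1 WT library each. They passed the filter only through Lf-/- libraries, where they were higher, so their p-values are no evidence of a difference. These genes are among the 7 and among the 8 counted above, so both counts rest in part on the filter. The 18-gene early B lineage list moved with the regulators, and its part in their differences was not tested.

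The genes most like Rag1 across the 7 libraries, by Pearson correlation of log2(FPKM + 1) among 9876 genes with a mean of at least 1 FPKM, were Plekho1 (r = 0.99), Il7r (0.985), Insl6 (0.984) and Traf6 (0.978). Il7r encodes the interleukin 7 receptor of early lymphocytes, and Traf6 lies 28927 bases from Rag1 on chromosome 2. Those most like Dntt were Srebf2 (0.99), Tpm4 (0.989), Arsa (0.988) and Nkiras2 (0.979). Those most like Hmgb2 were the neutrophil genes S100a9 (0.984) and Ngp (0.953), its own near-identical copy AC153546.1 (0.984) and Mir692-2 (0.96). The 7 points share genotype, library composition and depth, and the genes were picked as the most alike, so these are descriptions only.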

How the data were processed

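RNA of sorted mouse bone marrow cells was sequenced in 7 libraries, and the authors deposited 1 FPKM value per gene and library. The submitters' processing notes name TopHat, Cufflinks, HTSeq and DESeq with the build GRCm38, and no versions or roles are given. Libraries were grouped by their labels. The methods state 3 mice per group and the labels list 2 replicates, and libraries with the same label name in both stages may share an animal, so p-values measure only the spread between these libraries. Gene models came from GENCODE M21 on GRCm38 and promoters from RefSeq (9 of 10 members matched).

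Genes that reached 1 FPKM in 2 or more libraries were tested on log2(FPKM + 1) in limma 3.58.1 under R 4.3.3, using the mean-variance trend option, two-sided p-values and Benjamini-Hochberg adjustment over all genes tested. Near-identical transcripts were found with blastn 2.17.0. Python 3.11.15, pandas 2.3.3 and matplotlib 3.10.9 were used elsewhere. The additive fit was tested on simulated data with normal noise. Named genes were the members, Ltf, up to 6 genes of each pathway list by size of the genotype difference, and the 4 genes most like Rag1, Dntt and Hmgb2. Genes overlapping or near-identical to members were added after their values were seen.

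The members and lists were chosen with earlier results of these data known. In all, 58 member results and 11 summary counts were computed under 33 alternative settings, which gave 780 alternative values. They comprised other scalings, a constant of 0.1, other filters, replicate blocks, 1 fit of all libraries, another B lineage denominator and each library left out in turn. Fits without a filter combined with each other choice, pathway lists without 1 library and shares of all genes under each scaling were added after seeing the data. Of these, the fits without a filter are counted in the closing section, and the pathway lists without 1 library are given above only. Replicate numbers did not pair the libraries by their deviations (r = -0.013 and 0.039 over 10793 genes). Some marker results are not reported here.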

Additional observations from a re-analysis of the deposited data

How the results depend on the processing

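Of the 58 member results, 24 changed sign under at least 1 alternative, in 55 of the alternative values, and 3 values moved past the adjusted threshold. Sign changes of untested pro-B values under the size limit are not in these numbers and are given above for Hmgb1 and Xrcc5. In the tested genotype comparisons Rag1, Dclre1c and Xrcc6 kept their sign under every alternative run, and Dntt did with stages combined. Rag1 has no value with 1 FPKM required in every library, and without either Lf-/- pre-pro-B library it has one in fits with no filter alone. The cause of the changes below was not tested.

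In pre-pro-B cells the sign changed with median-ratio scaling for Hmgb1 (-0.12), with quantile normalization for Xrcc5 (-0.065), with an equal sum outside neutrophil genes for Hmgb1 (-0.068) and Rag2 (-0.0069), and with a constant of 0.1 for Rag2 (-0.52). With stages combined it changed with median-ratio scaling for Hmgb1 (-0.28) and Prkdc (-0.0068), with quantile normalization for Xrcc5 (-0.058), Hmgb1 (-0.049) and Prkdc (-0.039), with the equal sum for Hmgb1 (-0.090) and with a constant of 0.1 for Prkdc (-0.094). Between stages it changed with quantile normalization for Dntt (0.039) and Lig4 (-0.015) and with the equal sum for Dntt (0.091). In the interaction it changed with median-ratio scaling for Xrcc5 (-0.054), Dclre1c (-0.12) and Hmgb1 (-0.40), with quantile normalization for Dclre1c (-0.32) and Hmgb1 (-0.19), with the equal sum for Hmgb1 (-0.056) and with a constant of 0.1 for Rag1 (0.035).

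With each library left out in turn, pre-pro-B differences ran from -0.14 to 2.005 for Dntt, -0.63 to 1.05 for Xrcc5, 0.64 to 1.34 for Xrcc6, -0.37 to 0.015 for Hmgb2, -0.078 to 0.18 for Hmgb1, -0.36 to 0.15 for Prkdc, -0.44 to 0.49 for Rag2 (-0.061 without WT replicate 1) and -0.21 to 0.50 for Lig4. With stages combined they ran from -0.10 to 0.74 for Xrcc5, 0.021 to 0.72 for Rag2, 0.084 to 0.44 for Lig4, 0.93 to 2.64 for Dntt and -0.11 to 0.22 for Prkdc (-0.011 without Lf-/- pro-B replicate 1). Stage differences ran from -0.87 to 0.84 for Dntt, -0.83 to 0.0039 for Xrcc5, -0.25 to 0.0043 for Dclre1c, -0.0079 to 0.32 for Prkdc, -0.069 to 0.63 for Rag2 and -0.16 to 0.19 for Lig4 (-0.0865 without Lf-/- pro-B replicate 1). Interactions ran from -0.63 to 1.05 for Xrcc5, -0.17 to 0.33 for Dclre1c, -0.057 to 0.20 for Hmgb1 and -0.12 to 0.59 for Lig4.

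Counts of genes with an adjusted p under 0.05 ran, with a library left out, from 0 to 3338 in pre-pro-B cells, 0 to 123 with stages combined, 0 to 36 between stages and 0 to 561 in the interaction, and unadjusted counts from 140 to 4416, 425 to 3033, 139 to 1763 and 90 to 2920. Lf-/- pre-pro-B replicate 1, when left out, gave the highest of these counts, except the adjusted counts with stages combined and between stages, which were highest without replicate 2. With stages combined the adjusted count was 7 with median-ratio scaling, 10 with quantile normalization, 12 with the equal sum, 9 with a constant of 0.1, 63 with 1 FPKM required in every library and 0 without a filter. Between stages it was 0 with quantile normalization, with a constant of 0.1 and without a filter, and 6 with the strict filter, and the unadjusted count was 156 with the strict filter and 626 without a filter. Unadjusted, pre-pro-B cells gave 528 genes in 1 fit of all libraries and 649 without a filter. The interaction gave 122 adjusted and 1608 unadjusted without a filter, and unadjusted 139 with median-ratio scaling, 171 with quantile normalization, 195 with a constant of 0.1 and 152 with the strict filter. The pro-B comparison called 1462 genes by size, 822 with median-ratio scaling, 835 with quantile normalization and 2853 with a constant of 0.1. The members with no overlap numbered 1 with median-ratio scaling (2.47% of genes above 0, 5.16% of those past the filter). With a library left out they numbered 2 to 4 (5.34% to 10.3% of genes above 0, 10.5% to 21.9% of those past the filter).

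With the replicate number as a block, 65 genes passed adjusted and 532 unadjusted in pre-pro-B cells, and 22 passed adjusted with stages combined, with the number fixed or the label name random. With the label name as a replicate block, 8 genes passed adjusted and 403 unadjusted between stages, and Dntt was at 0.25. No member was called under any block. The pairing of libraries by number was not shown by the labels or the data. Depth limits the members that rest on few fragments, such as Rag2 and Lig4, and 1 WT pro-B library limits every pro-B value.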
